A study of Homo sapiens with 6 samples.

Results

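The genes described here encode the perilipins and other proteins that coat, fuse or form lipid droplets: PLIN1, PLIN2, PLIN3, PLIN4, PLIN5, CIDEB, CIDEC, FITM1, FITM2 and HILPDA. They were picked by gene symbol as a functional family, and each of the 10 had 1 row among the 60240 Ensembl genes of the table. HepG2, a line grown from a human hepatocellular carcinoma, was either left as a control or given 100 ng/ml of recombinant GDF11, a secreted growth factor related to TGF-beta, for 24 h. All cultures shared a high-glucose medium with fetal bovine serum. There were 3 control and 3 GDF11 libraries of total RNA, which the labels call biological replicates of this line, and the sources used here do not say what the controls received in place of GDF11. The series asks how GDF11 affects lipid storage in liver cancer cells, and lipid itself was not measured in the data used here.

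A lipid droplet is a core of triglyceride and sterol ester under a monolayer of phospholipid, and it buds from the endoplasmic reticulum. Perilipins sit on this monolayer and limit the access of lipases, CIDE proteins move lipid between touching droplets, FITM proteins act in the endoplasmic reticulum membrane where droplets bud, and HILPDA binds and inhibits the lipase ATGL. In hepatocytes PLIN2 is the main coat protein, and CIDEB also serves the loading of lipid onto lipoproteins.

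Of the 10 genes, 2 rose with GDF11 (PLIN2 and FITM1), 4 fell (CIDEB, CIDEC, PLIN1 and HILPDA) and 4 were not called (PLIN3, PLIN4, PLIN5 and FITM2). A gene was called when its limma p, adjusted by Benjamini-Hochberg over all 18723 tested genes, was under 0.05. All 10 passed the filter on low values. Over all tested genes 11.7% were called higher and 10.8% lower, and 22.4% in either direction. The control and GDF11 values did not overlap for 8 of the 10 genes, 4 upward and 4 downward, where 20.9% of all tested genes stood apart upward and 19.6% downward (40.5% together). The median log2 difference was -0.17 over the 10 genes and 0.0056 over all tested genes.

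Depth was estimated from the values at 47900000 to 53400000 reads per library. The labels name a MiSeq, an instrument whose runs usually yield fewer reads than this, so the depth is uncertain. Values are given as deposited, variance-stabilised and in log2, with 5.52 standing for no reads, or as normalised reads obtained by inverting that scale. The RNA integrity number was 9.6 to 9.9 in the controls and 9.4 to 9.6 with GDF11, so it moved with the treatment. Control replicate 3 lay between the other controls and the GDF11 libraries for some genes and not for others, as given gene by gene. The share of all tested genes called moved with the libraries used. Leaving out control replicate 3 gave 19.5% higher and 21.3% lower, leaving out control replicate 1 gave 7.56% and 5.84%, and leaving out control replicate 2 gave 8.62% and 6.35%. It was 7.46% and 5.35%, 8.1% and 6.11%, and 7.81% and 5.1% without GDF11 replicates 1, 2 and 3. With RNA integrity fitted as a covariate it was 6.14% and 3.85%, with median centring 10.1% and 12.1%, and with no filter on low values 6.37% and 5.15%. Hepatocyte markers were present (8 of 8 tested): 5 of these fell and 0 rose, with a median log2 difference of -0.79. Of 6 adipocyte markers, FABP4, LPL and CIDEA were at the lowest value in all 6 libraries, ADIPOQ and LEP had at most 4.83 and 5.51 reads in a library, and PLIN1 was the remaining member. As a check of the treatment, 10 of 10 TGF-beta/SMAD feedback targets rose, by a median of 2.36. In bulk RNA, fewer cells of a kind and less RNA per cell cannot be told apart.

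**Figure D1:**
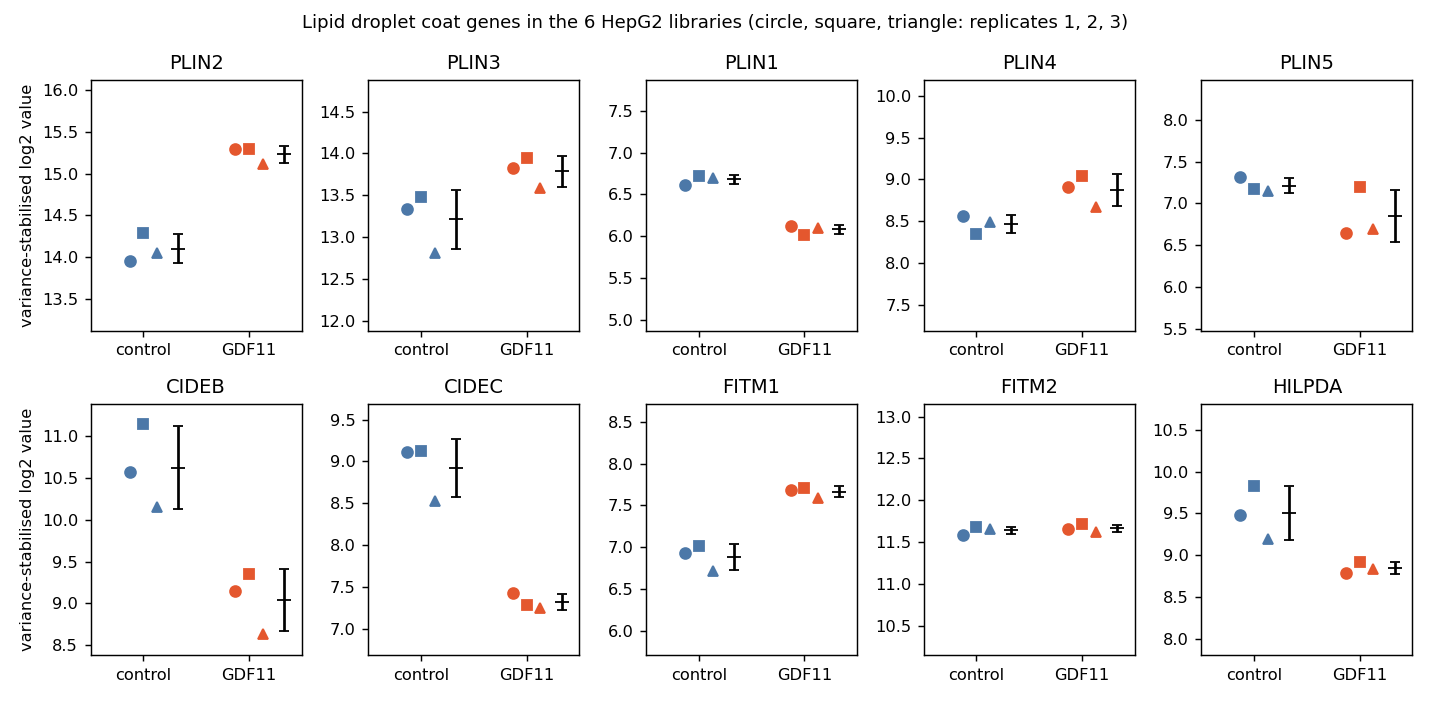
Variance-stabilised log2 value (vertical axis, spanning the same width of log2 units in every panel) of each of the 10 genes in the 3 control (blue) and 3 GDF11 (red) libraries, with symbols for replicates 1 to 3 and the mean ± SD in black. PLIN2 and FITM1 stand higher and CIDEB, CIDEC, PLIN1 and HILPDA lower in all 3 GDF11 libraries than in any control.

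PLIN2 was the most abundant of the 10 transcripts and became more so. It lies on chromosome 9, 19108388 to 19127492 of GRCh38 (ENSG00000147872.10). Its values were 13.96, 14.29 and 14.06 in controls 1 to 3, against 15.29, 15.29 and 15.11 in GDF11 libraries 1 to 3. The highest control was 0.82 below the lowest GDF11 library, and the GDF11 libraries lay closer together than the controls. In normalised reads this was 17587 ± 2169 in the controls and 38443 ± 2678 with GDF11 (mean ± SD, n = 3 each), a ratio of 2.19. The log2 difference was 1.13 ± 0.16 (difference ± SE, limma adjusted p = 0.00153). Control replicate 3 stood with the other controls, at a position of -0.062, where 0 marks the average of the other controls and 1 that of the GDF11 libraries. PLIN2 remained called in all 17 alternative analyses, with differences from 1.06 to 1.34, and was 1.31 with RNA integrity fitted as a covariate.

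The 250 bases upstream of the RefSeq start of PLIN2 (chr9:19127493-19127742, GRCh38.p14, minus strand, written 5′ to 3′) are shown because PLIN2 is the most abundant member that rose. Capitals mark matches, on either strand, to ACGTG, the core of the hypoxia response element.
PLIN2 promoter: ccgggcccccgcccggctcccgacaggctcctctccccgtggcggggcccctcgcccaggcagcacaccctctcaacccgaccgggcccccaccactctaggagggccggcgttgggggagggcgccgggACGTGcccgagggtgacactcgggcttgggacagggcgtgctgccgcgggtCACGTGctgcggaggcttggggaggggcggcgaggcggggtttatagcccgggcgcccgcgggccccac
This window is 78% G and C and holds 28 CG dinucleotides, against a median of 58.0% and 11 over 35116 RefSeq promoter windows of the same length. ACGTG occurs 120 bases before the start and again at CACGTG, where matches on both strands overlap 69 and 68 bases before it. Of all the windows, 18.5% hold ACGTG, a share not matched for G and C content or CG dinucleotides. Further motifs searched on both strands were the PPAR/RXR direct repeat with 1 base between its repeats (in 0.0171% of windows), TGANTCA for AP-1 (6.57%) and CAGACA for SMAD proteins (13.6%). None of the 3 occurs in the PLIN2 window. A match of letters is a description and not evidence of binding.

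PLIN3, an exchangeable perilipin that moves between cytosol and new droplets, was the next most abundant coat gene. Its values were 13.34, 13.48 and 12.81 in controls 1 to 3, against 13.83, 13.95 and 13.58 in GDF11 libraries 1 to 3. All GDF11 libraries were above all controls, by a gap of 0.10, but the controls spread widely because control replicate 3 was low. The difference of 0.58 ± 0.20 was not called (limma adjusted p = 0.0743, 95% interval 0.11 to 1.04, not adjusted for the number of genes). Without control replicate 3 it was 0.38 (adjusted p = 0.0572). With RNA integrity fitted as a covariate it was 1.10 and called (adjusted p = 0.0108). It was also called with quantile normalization (0.72, adjusted p = 0.00860) and with library weights (0.50, adjusted p = 0.00932).

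PLIN1, the perilipin of adipocytes that regulates hormone-stimulated lipolysis there, was the least abundant member. Its normalised reads were 27.8, 33.9 and 32.0 in controls 1 to 3, against 8.07, 5.48 and 7.56 in GDF11 libraries 1 to 3. Every GDF11 library was below every control, and controls held 4.44 times as many reads. Because the scale compresses low values, this fold appeared as a log2 difference of only -0.60 ± 0.094 (limma adjusted p = 0.00246), and as -2.01 on the log2 scale of reads plus 1. The call was lost with RNA integrity fitted as a covariate (-0.58, adjusted p = 0.0515). The few reads limit the precision of the fold.

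PLIN4, a perilipin of adipocytes and muscle built around a long repeat, had values of 8.56, 8.35 and 8.49 in controls 1 to 3, against 8.91, 9.04 and 8.67 in GDF11 libraries 1 to 3. The groups did not overlap, with a gap of 0.10, and the difference of 0.40 ± 0.16 was not called (limma adjusted p = 0.0958, 95% interval 0.05 to 0.76, unadjusted). With library weights it was called (0.38, adjusted p = 0.0277). PLIN5, which joins droplets to mitochondria in oxidative tissues, had values of 7.31, 7.17 and 7.15 in controls 1 to 3, against 6.65, 7.20 and 6.70 in GDF11 libraries 1 to 3. GDF11 replicate 2 lay among the controls and the other GDF11 libraries below them. The PLIN5 difference of -0.36 ± 0.16 was not called (limma adjusted p = 0.141, 95% interval -0.73 to 0.0074, unadjusted), and it was called without GDF11 replicate 2 (-0.54, adjusted p = 0.0388) and with library weights (-0.47, adjusted p = 0.0337). PLIN4 and PLIN5 are neighbours on chromosome 19, at 4502192 to 4518486 and 4522531 to 4535224 of GRCh38, and their estimates have opposite signs. PLIN5 shares 1047 of its 4815 annotated exon bases with ENSG00000267385, a gene model on the same strand, so reads there could be assigned to either.

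CIDEC (FSP27), which enlarges droplets by fusion and is known from adipocytes and fatty liver, had the largest decrease with all libraries, on the log2 scale and as a ratio of reads. It lies on chromosome 3, 9866710 to 9880253 (ENSG00000187288.10). Its values were 9.11, 9.13 and 8.52 in controls 1 to 3, against 7.43, 7.29 and 7.24 in GDF11 libraries 1 to 3. Control replicate 3 was the lowest control, at a position of 0.33 toward the GDF11 mean, and was still 1.09 above the highest GDF11 library. In normalised reads the means were 406 ± 108 and 81.4 ± 10.3 (SD, n = 3 each), 4.99 times more in the controls. The log2 difference was -1.60 ± 0.19 (limma adjusted p = 0.000521). CIDEC was called in all 17 alternatives. Its difference was -2.27 on the log2 scale of reads plus 1, -1.12 with RNA integrity fitted and -1.80 without control replicate 3.

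RefSeq gives CIDEC 2 start sites. The 250 bases before the outer start (chr3:9880254-9880503, GRCh38.p14, minus strand, 5′ to 3′) are shown for contrast with PLIN2, since CIDEC fell.
CIDEC promoter, outer start: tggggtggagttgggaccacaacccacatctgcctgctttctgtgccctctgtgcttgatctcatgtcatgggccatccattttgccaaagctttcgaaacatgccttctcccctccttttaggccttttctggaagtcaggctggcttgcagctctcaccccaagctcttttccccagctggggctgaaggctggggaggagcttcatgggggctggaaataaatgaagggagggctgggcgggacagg
This window holds none of the 4 motifs and has no capitals. It is 56.4% G and C with 2 CG dinucleotides. Before the inner start, TGACTCA, a match to the AP-1 letters, begins 95 bases upstream. Of the 9 members with a RefSeq window (11 windows), PLIN2 and CIDEC were those with any match. The windows of PLIN3, PLIN4, PLIN5, FITM2 and the outer start of CIDEB had 63.2% to 70.8% G and C, and those of PLIN1, FITM1, CIDEC and the inner start of CIDEB 42.0% to 56.4%. HILPDA has no window in the table.

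CIDEB, the CIDE gene of hepatocytes, fell by an amount similar to CIDEC on the deposited log2 scale, from a higher level. That scale compresses low values, and on the log2 scale of reads plus 1 the difference was -1.76 for CIDEB and -2.27 for CIDEC. CIDEB lies on chromosome 14, 24305187 to 24311435 (ENSG00000136305.11). Its values were 10.57, 11.14 and 10.16 in controls 1 to 3, against 9.15, 9.35 and 8.63 in GDF11 libraries 1 to 3. The SD was 0.49 in the controls and 0.37 with GDF11, in each group the highest of the 10 genes. The gap between the groups was 0.81, with control replicate 3 at a position of 0.39. The log2 difference was -1.58 ± 0.27 (limma adjusted p = 0.00405), and normalised reads went from 1549 ± 567 to 451 ± 130, 3.43 times more in the controls. With RNA integrity fitted the difference was -0.79 and the call ended (adjusted p = 0.109), and without control replicate 3 it was -1.81. Of the hepatocyte markers 5 of 8 fell as well, with summed reads of 1506560 to 2000410 in the controls and 1225170 to 1361760 with GDF11, and their part in the CIDEB result was not tested. CIDEB shares 1577 of its 2821 annotated exon bases with NOP9 and 1276 with LTB4R2, both on the opposite strand. NOP9 (-0.41 ± 0.15, limma adjusted p = 0.0840) and LTB4R2 (0.24 ± 0.14, limma adjusted p = 0.246) were not called. NOP9 stood above CIDEB, with means of 11.97 in the controls and 11.56 with GDF11, against 10.62 and 9.04 for CIDEB. The libraries are directional, but the sources used here do not say whether the counting used strand. How many CIDEB reads came from NOP9 is therefore not known, which also limits the CIDEB levels and ratios below.

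FITM1, the FITM gene known from skeletal muscle, rose from a low level. Its values were 6.93, 7.02 and 6.71 in controls 1 to 3, against 7.69, 7.71 and 7.59 in GDF11 libraries 1 to 3. Control replicate 3 was the control farthest from the GDF11 libraries (position -0.38), and the gap between the groups was 0.57. Normalised reads were 44.9 ± 10.7 and 121 ± 8.60 (SD, n = 3 each), a ratio of 2.70, and the log2 difference was 0.78 ± 0.13 (limma adjusted p = 0.00349). FITM1 was called in all 17 alternatives. Its difference was 0.67 with quantile normalization, 1.01 with RNA integrity fitted and 1.44 on the log2 scale of reads plus 1. FITM2, its widely expressed relative, stood at 11.59, 11.67 and 11.65 in controls 1 to 3, against at 11.66, 11.71 and 11.62 in GDF11 libraries 1 to 3. The FITM2 groups overlapped throughout, and the difference was 0.023 ± 0.13 (limma adjusted p = 0.916, 95% interval -0.28 to 0.32). In striated muscle markers, summed reads were 474 to 899 in the controls and 789 to 1070.3 with GDF11. CKM, with up to 684 reads in a control and 643 in a GDF11 library, was not called (0.052 ± 0.24). ACTA1 rose, with up to 214 and 427 reads. MYH2 was at the lowest value in all 6 libraries, and MYH7 and MYOG had at most 1.92 and 0.96 reads in a library. The part of these markers in the FITM1 result was not tested. FITM1 shares 554 of 1971 exon bases with ENSG00000259371, a same-strand gene model that was not called.

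HILPDA, the small ATGL inhibitor induced by hypoxia and fatty acids, was lower with GDF11. Its values were 9.48, 9.83 and 9.20 in controls 1 to 3, against 8.78, 8.92 and 8.83 in GDF11 libraries 1 to 3. The GDF11 libraries lay close together, 0.28 under control replicate 3, which was at a position of 0.56. The difference was -0.66 ± 0.18 (limma adjusted p = 0.0322), with 1.74 times more normalised reads in the controls. This call was the least stable of the 6. It ended without control replicate 1 (-0.67), control replicate 2 (-0.50), GDF11 replicate 1 (-0.63), GDF11 replicate 2 (-0.70) or GDF11 replicate 3 (-0.65), at adjusted p from 0.0755 to 0.113, and when RNA integrity was fitted (-0.30, adjusted p = 0.488). Without control replicate 3 it was -0.81 (adjusted p = 0.00349). ENSG00000273184, a noncoding gene on the same strand that shares 175 of 2070 HILPDA exon bases, was lower too (-0.61 ± 0.18, limma adjusted p = 0.0434). HILPDA-AS1, annotated on the same strand and sharing 186 of those bases, was not called (-0.19 ± 0.20, limma adjusted p = 0.529).

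**Figure D2:**
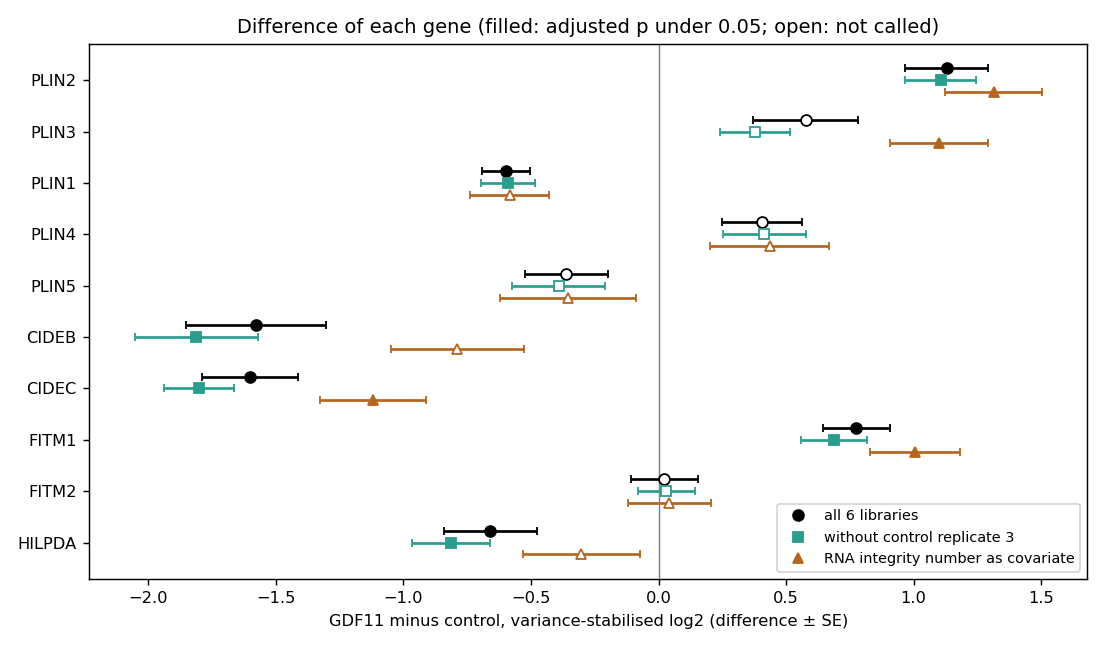
GDF11 minus control on the variance-stabilised log2 scale (difference ± SE, horizontal axis) for each gene with all 6 libraries (black circles), without control replicate 3 (green squares) and with RNA integrity fitted as a covariate (brown triangles); filled symbols have an adjusted p under 0.05. With the covariate CIDEB goes from -1.58 to -0.79 and HILPDA from -0.66 to -0.30, and PLIN3 goes from 0.58 to 1.10.

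Levels of different genes were compared as normalised reads per kilobase of the MANE Select transcript, a representative transcript for each gene; which transcripts these cells use is not known from the table. In the controls PLIN2 led with 9271 ± 1143, followed by PLIN3 with 4285 ± 983 and CIDEB with 1265 ± 463 (mean ± SD, n = 3). FITM2 (669.5 ± 21.3), HILPDA (475 ± 119) and CIDEC (311 ± 83.0) formed a middle range. PLIN4 (41.3 ± 4.04), PLIN5 (28.6 ± 3.38), FITM1 (24.8 ± 5.93) and PLIN1 (10.7 ± 1.08) were low. In this order PLIN5 and FITM1 were the only neighbours whose control libraries overlapped.

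With GDF11 the order changed in the middle. PLIN2 stood at 20265 ± 1412 and PLIN3 at 6325 ± 799.9 reads per kilobase, still ahead of the rest. FITM2, at 681 ± 22.1, was now above CIDEB (368 ± 106), and it stayed above HILPDA (273 ± 16.5). The CIDEB and HILPDA libraries overlapped. FITM1 (67.1 ± 4.76), CIDEC (62.4 ± 7.89) and PLIN4 (59.0 ± 9.20) overlapped as neighbours, although CIDEC had been far above the other 2 in the controls. PLIN5 (17.7 ± 9.09) was now below FITM1, and PLIN1 (2.41 ± 0.470) was lowest in both groups.

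**Figure D3:**
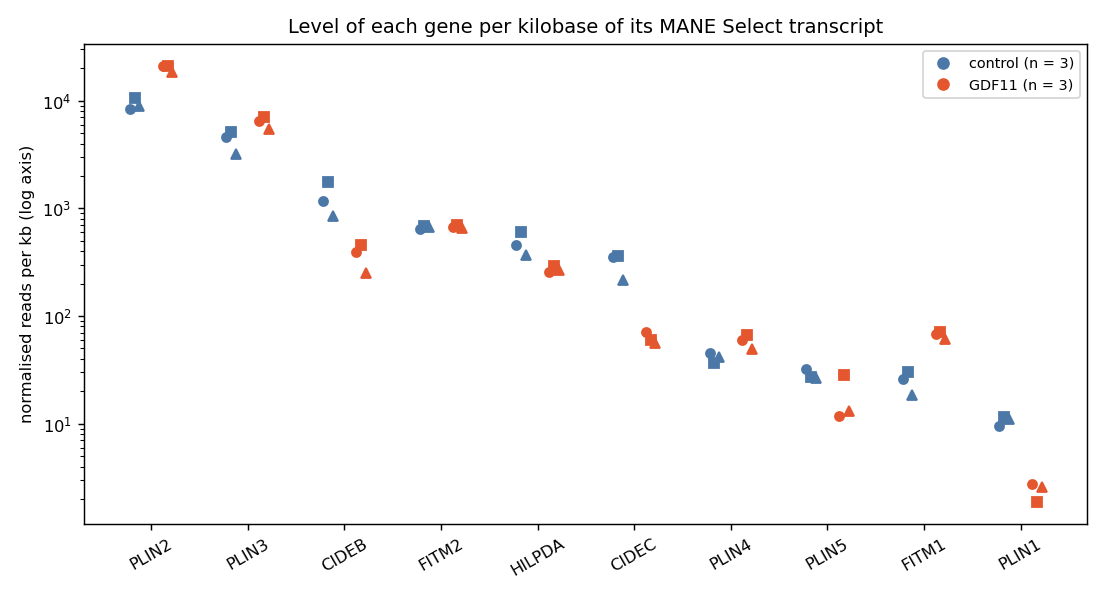
Normalised reads per kilobase of transcript (logarithmic vertical axis) of each gene in the 3 control (blue) and 3 GDF11 (red) libraries, ordered by control level, with circle, square and triangle for replicates 1, 2 and 3. PLIN2 goes from 9271 to 20265 and CIDEC from 311 to 62.4, while FITM2 keeps 669.5 and 681.

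The make-up of the perilipin RNA was described per library, with no test because it is a score over these genes. PLIN2 made up 64.0%, 67.2% and 73.3% of perilipin reads per kilobase in controls 1 to 3, against 76.3%, 74.7% and 77.1% in GDF11 libraries 1 to 3. PLIN3 supplied nearly all the rest, 26.1% to 35.3% in the controls and 22.6% to 24.9% with GDF11. PLIN1, PLIN4 and PLIN5 made up the small remainder in every library. The PLIN2 share of control replicate 3 lay close to the GDF11 libraries, and it was PLIN3 that was low there. Summed perilipin RNA was 12201 to 15691 reads per kilobase in the controls and 24157 to 28206 with GDF11.

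Set against the CIDE genes, the shift was larger. That follows from PLIN2 being called higher and both CIDE genes lower, so the ratio is a description and adds no support. CIDEB, the larger part of the CIDE sum, stood at -0.79 and was not called with RNA integrity fitted. The ratio of PLIN2 to the sum of CIDEB and CIDEC, per kilobase, was 5.47, 4.95 and 8.33 in controls 1 to 3, against 45.4, 40.6 and 60.4 in GDF11 libraries 1 to 3. The lowest GDF11 ratio was far above the highest control ratio. Within the FITM pair, the ratio of FITM2 to FITM1 was 24.6, 22.96 and 36.9 in controls 1 to 3, against 9.87, 9.94 and 10.7 in GDF11 libraries 1 to 3. FITM2 thus stayed the main FITM transcript in every library. The ratio of CIDEB to CIDEC was 3.27 to 4.89 in the controls and 4.48 to 7.72 with GDF11, and these ranges overlap.

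**Figure D4:**
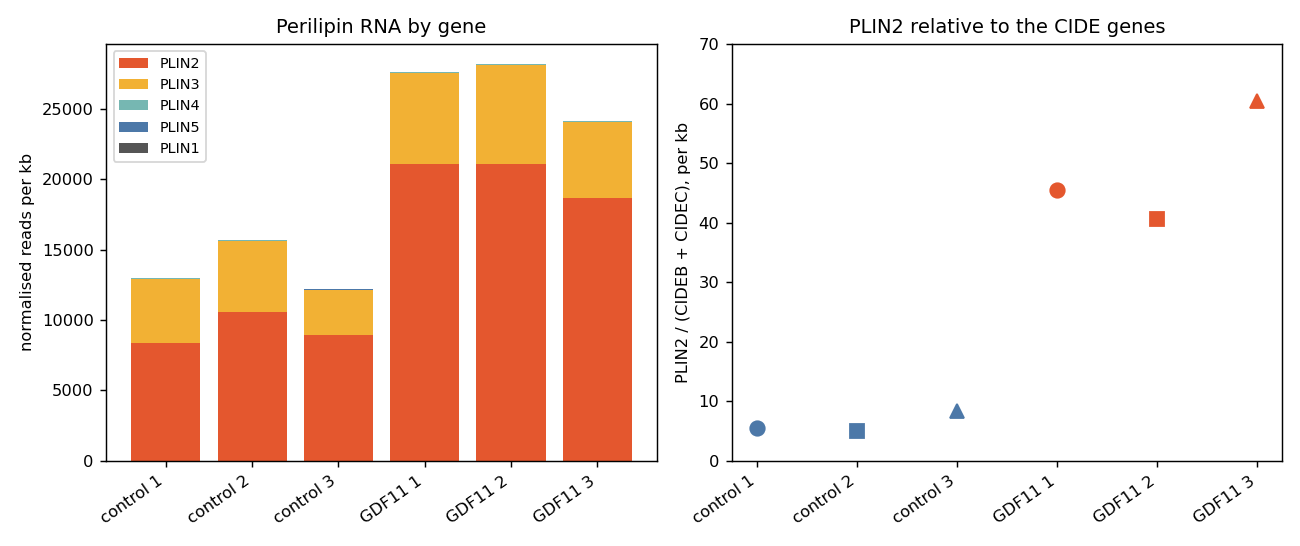
Left, normalised reads per kilobase of the perilipins stacked by gene in each library (vertical axis from 0; PLIN1, PLIN4 and PLIN5 are too low to see); right, the ratio of PLIN2 to CIDEB plus CIDEC per kilobase in each library (vertical axis from 0). PLIN2 accounts for most of the higher total with GDF11, and the ratio is 4.95 to 8.33 in the controls and 40.6 to 60.4 with GDF11.

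The genes whose values followed PLIN2 most closely over the 6 libraries were AQP3, an aquaglyceroporin that passes glycerol (Pearson r = 0.9995), the immediate early gene IER2 (0.999) and the synaptic vesicle gene SV2A (0.9988). For CIDEC they were EGFR-AS1 (0.9989), the replicative helicase gene MCM2 (0.9988) and HRCT1 (0.9987). With 6 libraries in 2 groups such a correlation mostly reflects the group difference, and it is given as a description. EGFR-AS1 is antisense to EGFR, and its reads may not be separable from that gene.

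Other genes of the droplet were read from lists chosen by function. Of all tested genes 11.7% were called higher and 10.8% lower, to be read beside the counts of each list. Without control replicate 3 these shares were 19.5% and 21.3%, and with RNA integrity fitted 6.14% and 3.85%. Among 13 genes of droplet formation at the endoplasmic reticulum, 0 rose, 3 fell and 10 were not called, with a median log2 difference of -0.063. DGAT1, which makes triglyceride, went from 12.96 ± 0.60 to 10.92 ± 0.18 (-2.04 ± 0.27, limma adjusted p = 0.00111). SOAT2, the sterol esterifying enzyme of hepatocytes, went from 10.57 ± 0.61 to 8.53 ± 0.22 (-2.04 ± 0.29, limma adjusted p = 0.00134). DGAT2, the other triglyceride synthase, fell by 0.81 ± 0.18, a call that ended without control replicate 1 (-0.70), GDF11 replicate 1 (-0.82) or GDF11 replicate 3 (-0.75) and when RNA integrity was fitted (-0.42). With RNA integrity fitted, DGAT1 stood at -1.24 and SOAT2 at -1.35, both called. LDAF1, the partner of seipin at sites of droplet formation, was not called (0.39 ± 0.16, limma adjusted p = 0.112; called with library weights at 0.60), and seipin itself, BSCL2, was not called (-0.079 ± 0.17, chosen after its value was seen). Without control replicate 3 the list counted 1 higher and 3 lower.

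Among droplet lipases and their regulators, 7 of 8 listed genes were tested. Of these 0 rose, 1 fell and 6 were not called (all tested genes: 11.7% higher, 10.8% lower), with a median of 0.13. LIPA, the lysosomal acid lipase of lipophagy, fell by 0.63 ± 0.14 (limma adjusted p = 0.0134), and this call ended without control replicate 1 (-0.56), GDF11 replicate 1 (-0.64), GDF11 replicate 2 (-0.63) or GDF11 replicate 3 (-0.64) and when RNA integrity was fitted (-0.61). G0S2, an ATGL inhibitor like HILPDA, had a difference of 0.33 ± 0.15 that was not called with all libraries and was called without control replicate 3 (0.46) and with library weights (0.59). MGLL (0.18 ± 0.13) and DDHD2 (0.18 ± 0.14) were not called, and MGLL was at -0.11 when RNA integrity was fitted. LIPE, the hormone-sensitive lipase, had at most 1.95 reads in a library and was not tested.

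Among 18 other proteins of the droplet surface, 16 were tested. Of these 2 rose, 3 fell and 11 were not called (all tested genes: 11.7% higher, 10.8% lower), with a median of 0.065. FAF2, a ubiquitin pathway protein that targets to droplets, rose by 1.03 ± 0.17 (limma adjusted p = 0.00310; 0.70 and not called when RNA integrity was fitted). METTL7A (-0.72 ± 0.17), METTL7B (-0.88 ± 0.22) and the sterol synthesis enzyme NSDHL (-0.80 ± 0.22) fell. All 3 calls ended without GDF11 replicate 1 or GDF11 replicate 3, and those of METTL7B and NSDHL also without control replicate 1 or control replicate 2; the METTL7A and NSDHL calls ended without GDF11 replicate 2 as well. When RNA integrity was fitted, METTL7B stood at -0.29 (limma adjusted p = 0.464) and NSDHL at -0.20 (limma adjusted p = 0.631), and neither was called. The list counted 4 higher and 4 lower without control replicate 3, and 0 higher and 1 lower when RNA integrity was fitted. Leaving out any other library gave 1 higher and 0 or 1 lower.

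The transcription factors known to control these genes moved in both directions. Of 16, 5 rose, 8 fell and 3 were not called (all tested genes: 11.7% higher, 10.8% lower), with a median of -0.57. PPARG, the fatty acid receptor that drives droplet genes in adipocytes and fatty liver, went from 10.08 ± 0.068 to 11.35 ± 0.080 (1.27 ± 0.14, limma adjusted p = 0.000330). EPAS1, a hypoxia-inducible factor, rose by 1.22 ± 0.19, and its call ended when RNA integrity was fitted (0.89, adjusted p = 0.0550). MLXIPL (ChREBP) fell by 2.01 ± 0.19 and the bile acid receptor gene NR1H4 fell by 1.57 ± 0.17. The counts were 2 and 3 when RNA integrity was fitted and 5 and 8 without control replicate 3. Leaving out control replicate 1 gave 3 and 5, control replicate 2 gave 4 and 4, GDF11 replicate 1 gave 3 and 3, GDF11 replicate 2 gave 3 and 4, and GDF11 replicate 3 gave 3 and 5.

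PLIN2 is itself a known target of the PPAR receptors. Of a list of PPAR targets chosen from outside the 10 members, 10 of 14 were tested. Among these 0 rose, 2 fell and 8 were not called (all tested genes: 11.7% higher, 10.8% lower), with a median of -0.097. FABP1, the liver fatty acid binding protein, fell by 1.93 ± 0.19 (limma adjusted p = 0.000192). CREB3L3, a liver transcription factor that is also counted among the regulators above, fell by 0.67 ± 0.17. That call ended without control replicate 2 (-0.56), GDF11 replicate 1 (-0.70) or GDF11 replicate 2 (-0.57) and when RNA integrity was fitted (-0.59). ACADVL (0.36 ± 0.15) and ETFDH (-0.30 ± 0.14) were not called, and ACADVL was called with quantile normalization (0.52) and library weights (0.45). The untested genes of this list were close to the lowest value. The number called higher was 1 when control replicate 2 or control replicate 3 was left out, and the number lower was 1 when control replicate 2, GDF11 replicate 1 or GDF11 replicate 2 was.

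Hypoxia target genes are the group to which HILPDA belongs. Of 12, 1 rose, 5 fell and 6 were not called (all tested genes: 11.7% higher, 10.8% lower), with a median of 0.0088. PDK1 fell by 1.00 ± 0.18, PFKFB4 fell by 1.08 ± 0.24 and BNIP3 fell by 0.67 ± 0.15, while the glucose transporter gene SLC2A1 rose by 0.97 ± 0.19. The PFKFB4 call ended without GDF11 replicate 3 (-1.003) and when RNA integrity was fitted (-0.39). The BNIP3 call ended without control replicate 1 (-0.67), GDF11 replicate 1 (-0.65), GDF11 replicate 2 (-0.66) or GDF11 replicate 3 (-0.71) and when RNA integrity was fitted (-0.49). The number of hypoxia targets lower was 5 without control replicate 3, when 3 were higher, and 3, 2 and 1 without GDF11 replicates 1, 2 and 3, and it was 1 when RNA integrity was fitted.

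**Figure D5:**
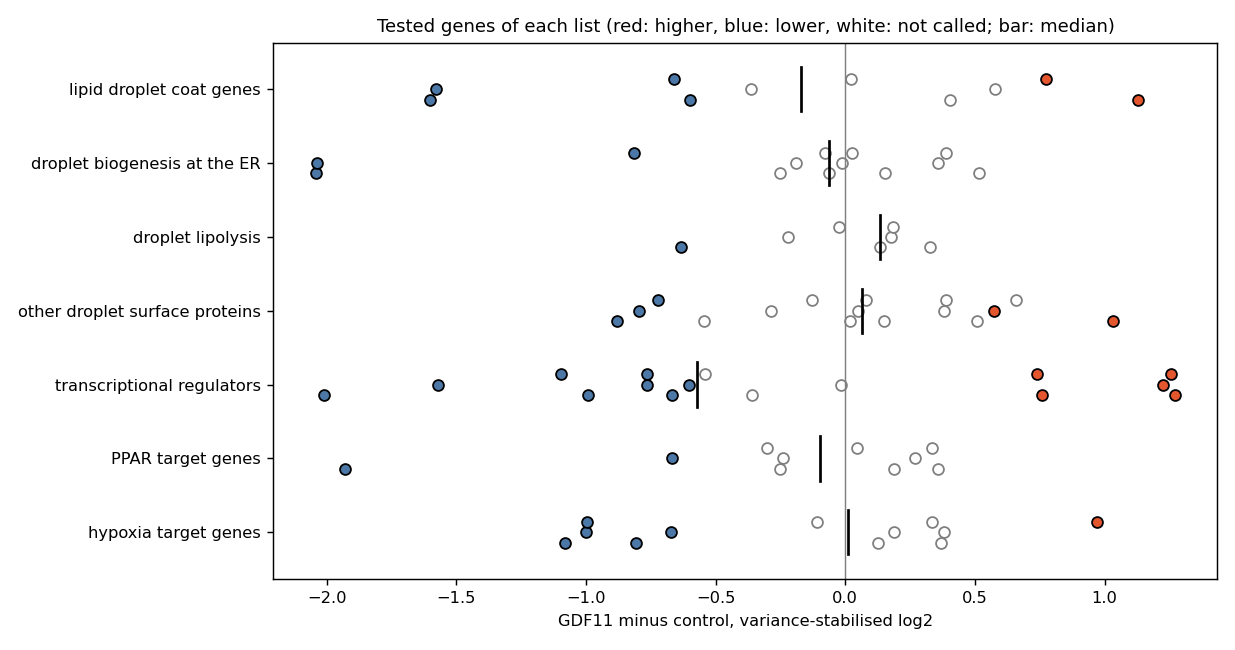
GDF11 minus control on the variance-stabilised log2 scale (horizontal axis) for every tested gene of the coat genes and of 6 related lists, with red for called higher, blue for called lower, white for not called and a black bar at the median. The transcriptional regulators have 5 red and 8 blue points, against 0 red and 1 blue for the droplet lipases.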

How the data were processed

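Total RNA of 6 HepG2 libraries (3 control, 3 GDF11) was sequenced as 75-base single reads from directional libraries, per the labels' protocols. The authors deposited 1 table of log2 values, named as variance-stabilised. GRCh38 and the tools DESeq2, Salmon 1.2.1 and Trimmomatic are named per the submitters' processing notes, whereas the labels' protocols name STAR and hg19, and neither source says which of these produced the values. The labels matched all columns to samples. Symbols matched 58349 of 60240 IDs (96.9%). Normalised reads came from inverting the variance-stabilising curve, on which a log2 change keeps 0.472 of its size at a value of 7, 0.914 at 10 and 0.994 at 14. In low values (up to 20 reads) 71.4% to 74.5% were whole within 0.01, so no count test was run. Genes with a mean at least 0.5 above the lowest value (18723) entered a two-sided limma test (version 3.58.1, R 4.3.3, mean trend, Benjamini-Hochberg) without covariates; the code was tested on simulated data. The members and lists were chosen with earlier results of these data known. Named are all members, the 4 genes of each described list with the lowest p, and the 3 genes most correlated with PLIN2 and CIDEC. Transcript lengths and exon overlaps come from GENCODE on GRCh37, positions and promoters from RefSeq on GRCh38.p14. Alternatives covered filters, normalization, variance prior, RNA integrity as a covariate, library weights, scale, a replicate block, threshold and each library left out. Reruns for the lists were added after the data were seen. Protein sequences were not used here.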

Additional observations from a re-analysis of the deposited data

How the results depend on the processing

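PLIN2, CIDEC and FITM1 kept direction and call in all 17 alternatives, PLIN1 in 15 of 16, CIDEB in 16 of 17 and HILPDA in 11 of 17. The number of members higher, 2 with all libraries, was 2 whichever library was left out. It was 4 with library weights, where 23.9% of all tested genes were called higher, against 11.7% without weights. At an adjusted p under 0.1 it was also 4, and the share of all tested genes at that threshold is not given here. Of the 4 lower, 1 was called when RNA integrity was fitted and 3 to 4 when 1 library was left out. FITM2, not called in any alternative, was at -0.035 with median centring, -0.0021 when control replicate 1 and -0.0006 when GDF11 replicate 2 was left out, and ranged from -0.0021 to 0.0447 when 1 library was left out; the cause was not tested. PLIN1 did not pass the stricter filter and has no value there. Over all tested genes, 2185 were higher and 2017 lower; the counts were 4473 and 4554 with library weights and 1149 and 721 when RNA integrity was fitted, and ranged from 1397 to 3647 and from 955 to 3993 when 1 library was left out, the highest of each without control replicate 3. With the replicate number as a block, 3147 genes were higher and 3306 lower, and of the members 3 were higher, PLIN3 among them (0.58, adjusted p = 0.0114), and 4 lower. The labels give no shared origin for equal numbers, so the libraries were not treated as pairs. Deviations of equally numbered libraries correlated at -0.088, 0.375 and 0.478 for replicates 1, 2 and 3. The values for replicates 2 and 3 were the highest between any control and any GDF11 library, whereas control replicate 1 correlated best with GDF11 replicate 2 (0.250). With the block the SE of CIDEB went from 0.27 to 0.14. Whether equal numbers share an origin was not tested. Low reads limit PLIN1, PLIN5 and FITM1 most.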
